A study of Mus musculus with 9 samples.

Results

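The H3K9 methyltransferases Setdb1, Setdb2, Suv39h1, Suv39h2, Ehmt1 and Ehmt2, their corepressor Trim28 and the HP1 proteins Cbx1, Cbx3 and Cbx5 were followed through an H3K9me3 ChIP-seq series from 2 mouse islet cell lines. The 10 genes were chosen by name, with earlier results of these data known, and the rule itself used no measured value. Of the 17641 windows in the deposited table, 8 were assigned to these genes, 1 each to 8 of the 10, while Setdb1 and Cbx3 had no window of their own. Of the 108915 peaks called over the 6 ChIP libraries, 75 lay within 2 kb of the 10 genes.

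The libraries came from alphaTC1 cells, a glucagon-producing line, transduced for 5 days with an empty vector (2 ChIP libraries) or with Smndc1 shRNA (2), and from untreated betaTC3 cells, an insulin-producing line (2). Each group also had 1 input library, giving 9 samples in all. Both lines derive from pancreatic tumours of mice that carry the SV40 large T antigen, so they are models of islet cells and not primary islets. Smndc1 encodes a splicing factor, and its transcript level was not analysed here. betaTC3 received no vector, so line and transduction cannot be told apart in its comparisons. Nothing in the labels says that replicates were separate cultures, and p-values then cover only the spread between these libraries.

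Trimethylated lysine 9 of histone H3 is a mark of silent chromatin. Suv39h1 and Suv39h2 write it mainly at pericentromeric repeats, Setdb1 writes it at retroelements when Trim28 brings it there through KRAB zinc finger proteins, and Ehmt1 and Ehmt2 work as a pair that writes the lower methylation states in euchromatin. The HP1 proteins read the mark through a chromodomain and bind the methyltransferases in turn. The values below describe the ChIP signal at the genes that encode this machinery, not the amount of the proteins.

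The empty-vector libraries held 5983486 and 9224783 reads in the windows, the knockdown libraries 4530066 and 4800860, and the betaTC3 libraries 9924487 and 7198683. Of all windows, 65.9% had their centre within 1 kb of a gene start. Libraries of a group correlated at 0.982 to 0.989 across windows, as a description over windows that share depth and scaling. The lineage genes separated the lines as labelled. The Gcg window held 340.3 to 421 scaled reads in the 4 alphaTC1 libraries and 0 in betaTC3. The Ins1 window held 314 and 354 in betaTC3 and at most 1.32 in alphaTC1. Signal thus lay at the hormone gene of the line that produces the hormone, where a mark of silent chromatin would be low. What the antibody bound there was not tested. The 6 alpha cell markers summed to 3135 to 3162 scaled reads in the empty vector, 2568 to 3367 in the knockdown and 421 to 448 in betaTC3. For beta cell markers, 5 of 6 genes had a window, and the sums were 1102 to 1143, 733 to 981 and 4744 to 5266. For ductal and acinar markers, 2 of 5 genes had a window within 10 kb, with sums of 665 to 725, 548 to 654 and 9.52 to 12.8, and their part in the differences below was not tested. For fibroblast markers 1 of 3 genes had windows, with sums of 77.2 to 87.4, 77.6 to 92.2 and 57.5 to 101, and for delta cells 1 of 2, with 35.7 to 39.9, 38.2 to 44.7 and 139.8 to 174. The PP cell, endothelial and blood markers had no window within 10 kb.

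Sequences are shown for Cbx5, Cbx1 and Setdb2, the genes whose windows were called between the lines. They are the 250 bases before 4 start sites in the RefSeq promoter table (GRCm38.p6, the build of the files), read 5' to 3' on the gene's strand. Capitals mark letters of searched motifs on either strand: the GC box (GGGCGG, in 32.7% of the 32807 promoters of the table), the NF-Y box (CCAAT, 33.8%) and the E-box (CACGTG, 6.02%). No matches overlapped in these 4 sequences. The ETS site (CCGGAAG, 6.91%), the CRE (TGACGTCA, 1.55%), the TATA box (TATAAA, 12.4%) and the NRF1 site (0.777%) were searched too and had no match in them. The first lies before a start site inside Cbx5, beside which the alphaTC1 libraries had a called peak and the betaTC3 libraries had none. The second lies before the upstream start of the same gene, and the others lie before Cbx1 and Setdb2. The upstream Cbx5 and the Setdb2 bases overlap the neighbouring genes Hnrnpa1 and Cab39l. The windows measured at Cbx1 and Setdb2 lie downstream of the printed bases and do not overlap them.
Cbx5 internal start, chr15:103215353-103215602, minus strand: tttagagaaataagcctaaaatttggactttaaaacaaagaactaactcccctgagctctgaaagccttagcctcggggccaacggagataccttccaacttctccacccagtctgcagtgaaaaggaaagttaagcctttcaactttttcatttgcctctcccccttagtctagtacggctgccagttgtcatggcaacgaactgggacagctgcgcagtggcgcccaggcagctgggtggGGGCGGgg
Cbx5 upstream start, chr15:103239853-103240102, minus strand: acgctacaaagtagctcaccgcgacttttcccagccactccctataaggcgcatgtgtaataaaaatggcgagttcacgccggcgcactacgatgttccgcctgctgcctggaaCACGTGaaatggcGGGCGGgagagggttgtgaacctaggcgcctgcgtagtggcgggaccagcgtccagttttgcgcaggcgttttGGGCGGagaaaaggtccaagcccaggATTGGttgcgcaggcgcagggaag
Cbx1, chr11:96788885-96789134, plus strand: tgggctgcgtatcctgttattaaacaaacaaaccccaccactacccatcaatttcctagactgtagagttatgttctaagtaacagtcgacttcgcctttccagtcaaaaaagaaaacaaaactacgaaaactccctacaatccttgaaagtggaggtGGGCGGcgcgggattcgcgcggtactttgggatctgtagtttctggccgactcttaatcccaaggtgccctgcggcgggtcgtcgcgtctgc
Setdb2, chr14:59440881-59441130, minus strand: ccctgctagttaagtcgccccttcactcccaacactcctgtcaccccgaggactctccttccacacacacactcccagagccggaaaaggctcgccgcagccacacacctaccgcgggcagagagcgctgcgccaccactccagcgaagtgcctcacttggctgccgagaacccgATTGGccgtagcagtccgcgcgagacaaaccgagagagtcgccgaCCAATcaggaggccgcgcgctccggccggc

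The internal Cbx5 sequence held 7 CpG dinucleotides and 1 GC box, starting at base 243, and 53.7% of promoters held fewer CpG. The upstream Cbx5 sequence held 22 CpG, GC boxes at bases 128 and 201, an E-box at 115 and an NF-Y box at 227, and 85.2% of promoters held fewer CpG. Cbx1 held 16 CpG and a GC box at 159, and Setdb2 held 24 CpG and NF-Y boxes at 176 and 221. The median promoter held 6 CpG, so 3 of the 4 sequences were CpG-rich and the internal Cbx5 sequence stood close to the median. A match is a description of these letters only.

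All 10 genes had a called peak with its summit within 1 kb of the RefSeq start in each of the 6 libraries, and at 7 of them a peak covered the start itself in every library. The share of all genes with such a peak was not computed, so these counts are not shown to be particular to the 10 genes. Over the whole table, 65.9% of windows had their centre within 1 kb of a gene start. The authors called the peaks in each library, and their fold enrichments are described within a list only. Among the methyltransferase genes, the strongest Ehmt2 peak was the broadest, at 2663 to 3010 bp, with folds of 25.1 to 82.9 and a q-value more extreme than that of 78.9% to 99.3% of the peaks of its list. The Setdb1 peak, 1395 to 1936 bp wide with folds of 26.6 to 64.2, ranked above 59.0% to 80.5% of its list, and its summit lay 377 to 473 bp downstream of the start. The Setdb2 peak had the lowest range of ranks of the 10, above 54.7% to 75.2% of its list, with its summit 196 to 256 bp from the start.

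The Suv39h1 peaks ranked above 59.3% to 92.0% of their lists and the Suv39h2 peaks above 80.2% to 93.3%. Ehmt1 ranked above 70.0% to 89.4%, and Trim28, the corepressor, above 75.8% to 94.0% with its summit 762 to 809 bp inside the gene. The HP1 genes Cbx3 and Cbx5 had the broadest peaks of the set. The Cbx3 peak spanned 5237 to 5747 bp and was wider than 99.6% to 99.7% of its list, with folds of 62.6 to 94.3. The Cbx5 start peak spanned 3339 to 3796 bp and was wider than 97.5% to 98.5% of its list, and the Cbx1 peak was 1716 to 2036 bp wide. Cbx3 and Cbx5 each start beside a divergent gene of a heterogeneous nuclear ribonucleoprotein, Hnrnpa2b1 and Hnrnpa1, and their summits lay upstream, at -575 to -499 bp and -771 to -732 bp, on the side of that neighbour. Setdb2 and Trim28 share their start regions too. Gm45935 ends at the Setdb2 start, 59440880, and Cab39l spans 59440934 to 59548904 beside it. Gm31649, at 13023708 to 13024589, covers the Trim28 start. Which gene the peaks at these shared starts belong to cannot be told apart. What the antibody bound at these starts was not tested.

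**Figure D1:**
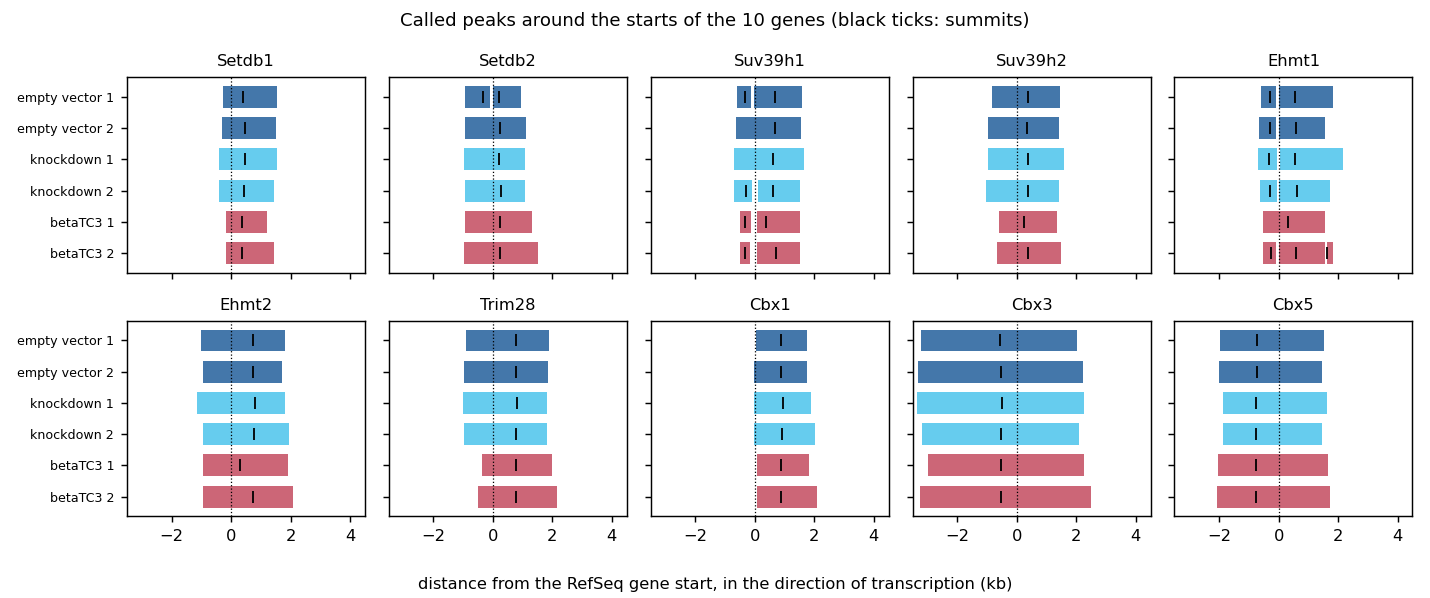
Called peaks (bars) and their summits (black ticks) within a few kb of the RefSeq start of each of the 10 genes, 1 row per ChIP library, coloured by group, with distance in kb in the direction of transcription. Every gene has a peak with its summit within 1 kb of the start in all 6 libraries, and the Cbx3 peak, 5237 to 5747 bp wide, is the broadest.

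The window table gives scaled reads per 401 bp window, that is, reads multiplied by 1 factor for each library. One read was worth 0.799 to 1.40 scaled reads. Each level below is for the library pairs in the order empty vector, knockdown, betaTC3. Levels rest on 2 libraries a group, and the share of cells that carry the mark, the copies of a locus and the mark on each copy cannot be told apart in such bulk libraries.

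Among the methyltransferases, Setdb2 (ENSMUSG00000071350, chr14:59440473-59440873, window centre 211 bp inside the gene by the annotation of the table) had 368 and 436 scaled reads in the empty vector, 309 and 349 in the knockdown, and 561 and 526 in betaTC3. Both betaTC3 libraries were above all 4 alphaTC1 libraries, and both knockdown libraries were below both empty-vector libraries. Suv39h1 (ENSMUSG00000039231, chrX:8073943-8074343, 617 bp inside) had 506 and 542, then 336 and 442, then 861 and 530.1. The second betaTC3 library fell between the empty-vector libraries, so those groups overlapped.

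Suv39h2 (ENSMUSG00000026646, chr2:3474481-3474881, 350 bp inside) had 945 and 956 scaled reads, then 509 and 637, then 1059 and 718. Ehmt1 (ENSMUSG00000036893, chr2:24918926-24919326, 488 bp inside) had 936 and 969, then 565 and 703, then 1033 and 782. Ehmt2 (ENSMUSG00000013787, chr17:34898984-34899384, 715 bp inside) had 1217 and 1134, then 805 and 998, then 1725 and 1084. At these 3 genes the betaTC3 libraries lay on either side of the empty-vector pair, while both knockdown libraries lay below it. Trim28 (ENSMUSG00000005566, chr7:13024755-13025155, 803 bp inside) had 982 and 918, then 532 and 738, then 1009 and 679, with betaTC3 again on either side.

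Among the HP1 genes, Cbx1 (ENSMUSG00000018666, chr11:96789307-96789707, 380 bp inside) carried the strongest signal of the 8 windows in alphaTC1. It had 1846 and 1921 scaled reads in the empty vector, 1161 and 1491 in the knockdown, and 1180.3 and 977 in betaTC3. The level was above that of 98.2% to 98.7% of all windows in alphaTC1 and of 90.7% to 91.3% in betaTC3. Cbx5 (ENSMUSG00000009575, chr15:103215045-103215445) was the exception of the set, since its window lies 24571 bp inside the gene and not at its upstream start. It had 38.4 and 56.8 scaled reads in the empty vector, 27.5 and 33.5 in the knockdown, and 7.19 and 1.90 in betaTC3, and no groups overlapped.

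betaTC3 library 1 was above library 2 in 8 of the 8 windows, against 57.5% of all windows, and the median difference over the 8 was 0.57 on the log2 scale. The first knockdown library was above the second in 0 of the 8, against 19.1% of all windows. The part of this spread in the results below was not tested.

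**Figure D2:**
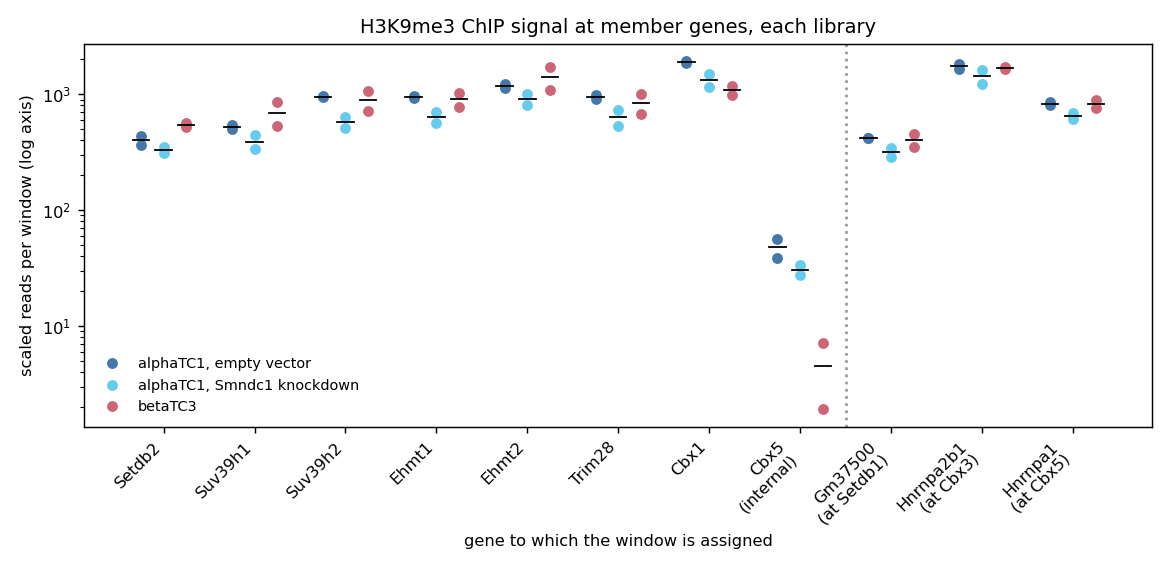
Scaled reads per window on a log axis for each of the 6 ChIP libraries, with a bar at the group mean (n = 2), for the 8 windows assigned to the genes and, right of the dotted line, 3 windows at Setdb1, Cbx3 and Cbx5 that the table assigns to neighbouring genes. The internal Cbx5 window is far below the others, with 27.5 to 56.8 in alphaTC1 and 1.90 and 7.19 in betaTC3.

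betaTC3 was compared with empty-vector alphaTC1 to ask how the ChIP signal at these genes differs between the lines. The internal Cbx5 window and the Cbx1 window were lower in betaTC3, the Setdb2 window was higher, and the other 5 did not pass the test. The test was limma on log2 of scaled reads plus 1, with Benjamini-Hochberg adjustment over all windows and a threshold of 0.05. It called 1 of the 8 windows higher and 2 lower, against 55.2% of all windows called (22.1% higher, 33.2% lower). The share of 3 in 8 was below the background share. By edgeR and by DESeq2 on recovered reads, Ehmt2 and Suv39h1 were called higher too, which made 5, against 11968 and 10917 of all windows. Groups did not overlap in 3 of the 8, against 82.8% of all windows. The median change of the 8 was -0.10 and that of all windows -0.13 on the log2 scale. Centring each library on its median moved the share of all windows called to 66.2%, with 34.3% higher and 31.9% lower, and called Suv39h1 too (0.55, limma adjusted p = 0.0333).

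Cbx1 fell from 1883 ± 53.4 to 1079 ± 144 scaled reads (SD, n = 2 each), a log2 change of -0.81 (SE 0.19, limma adjusted p = 0.0112). The median change of all windows on its chromosome 11 was -0.72, which leaves -0.09 for Cbx1 relative to its chromosome. Of the 20 nearest windows, 17 had a lower value than Cbx1, and the median of the 20 was -1.20. With each library centred on its chromosome medians the change was -0.18 and was not called (limma adjusted p = 0.138). Without any 1 of the 4 libraries compared, the change was -0.95 to -0.67 and was not called either (limma adjusted p = 0.0541 to 0.104).

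Setdb2 rose from 402 ± 48.0 to 543 ± 24.3 scaled reads (SD, n = 2 each), a log2 change of 0.44 (SE 0.14, limma adjusted p = 0.0389). Windows of chromosome 14 had a median change of 0.68, so Setdb2 was 0.24 lower than its chromosome, and the median of its 20 nearest windows was 0.71. Centred on the chromosome medians the change turned to -0.27 and did not pass (limma adjusted p = 0.0589). Setdb2 thus stood higher than in alphaTC1 on the scale of the table and below the median of its own chromosome. Its window also lies inside Gm45935 and beside Cab39l, so the signal cannot be assigned to Setdb2 alone. Without any 1 of the 4 libraries compared, the Setdb2 change was 0.32 to 0.56.

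Ehmt2 stood on the other side of its chromosome median. It had 1175 ± 58.7 scaled reads in the empty vector and 1404 ± 453 in betaTC3 (SD, n = 2 each), a log2 change of 0.22 (SE 0.25) that was not called (limma adjusted p = 0.487). It stood at -0.12 without the first betaTC3 library and at 0.55 without the second. Chromosome 17 had a median change of -0.29, which put Ehmt2 0.51 above it, and 17 of its 20 nearest windows had lower values. Centred on the chromosome medians the change was 0.53 and was called (limma adjusted p = 0.0364), although the betaTC3 libraries lay on either side of the empty-vector pair. That centring called 1 of the 8 windows higher and 1 lower, against 60.0% of all windows (31.3% higher, 28.7% lower).

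Suv39h1, Suv39h2, Ehmt1 and Trim28 had log2 changes of 0.37, -0.12, -0.08 and -0.20, with limma adjusted p-values of 0.260 to 0.729. Without the first betaTC3 library they stood at 0.02, -0.41, -0.28 and -0.48, and without the second at 0.72, 0.16, 0.12 and 0.09, so these values rest on which library is kept. Relative to their chromosomes, with both libraries, they stood at 0.32, 0.17, 0.21 and 0.39. Of the 8 windows, 5 were above the median change of their chromosome and 3, at Cbx1, Setdb2 and Cbx5, were below it. With chromosome centring none of these 4 was called (limma adjusted p = 0.110 to 0.382).

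**Figure D3:**
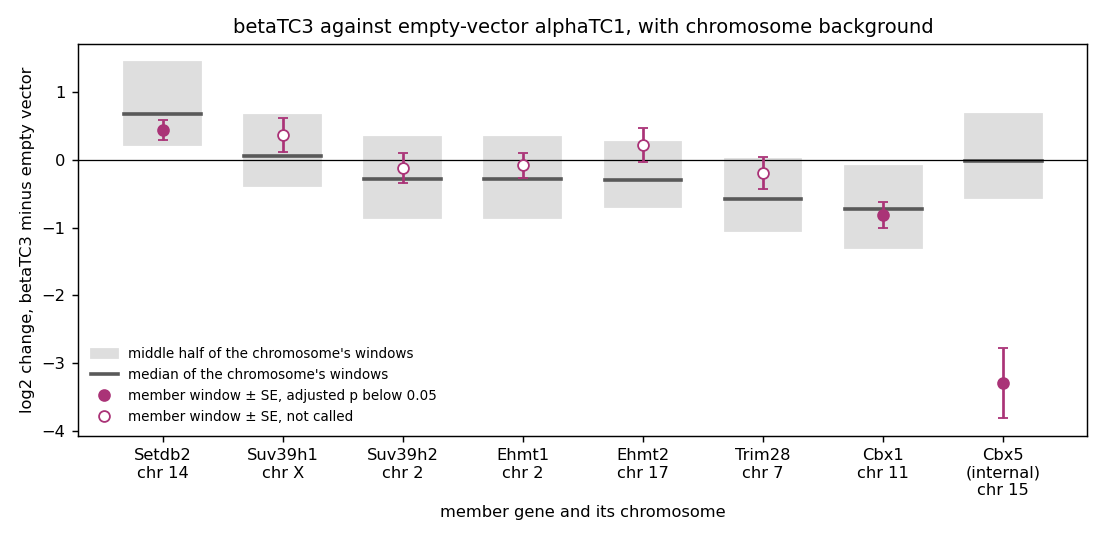
Log2 change of each window, betaTC3 minus empty vector, with its SE (points; filled where the adjusted p was below 0.05), over the median (line) and the middle 50% (grey box) of all windows of the same chromosome. Cbx1 at -0.81 and Setdb2 at 0.44 lie inside the box of their chromosomes, and the internal Cbx5 window at -3.29 lies far below its own.

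The internal Cbx5 window showed the largest difference among the 8. The empty-vector libraries had 29 and 64 reads there, the knockdown libraries 23 and 24, and the betaTC3 libraries 9 and 2. Summed by group, these were 93 reads (exact Poisson 95% interval 75.1 to 114), 47 (34.5 to 62.5) and 11 (5.49 to 19.7), intervals that cover counting error only. The mean was 47.6 ± 13.0 scaled reads in the empty vector, 30.5 ± 4.29 in the knockdown and 4.55 ± 3.74 in betaTC3 (SD, n = 2 each), 10.5 times lower in betaTC3 than in the empty vector.

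The log2 change was -3.29 (SE 0.51, limma adjusted p = 0.00172). It was -4.04 without the first betaTC3 library, -2.54 without the second and -2.50 with a pseudocount of 5, and was called lower in each. Chromosome 15 had a median change of -0.02, and with chromosome centring the change was -3.30 (limma adjusted p = 0.00111). Of the 19 nearest windows used, 3 had a lower value, and their median was -0.01. The window was weak throughout: its level was above that of 19.9% to 30.0% of windows in the alphaTC1 libraries and of 3.10% and 8.76% in betaTC3.

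The peak lists come from the same libraries as the window values, so they are no separate support. A peak was called at this place in 4 of 4 alphaTC1 libraries and in 0 of 2 betaTC3 libraries. If the windows were drawn from called peaks, this window entered through alphaTC1 alone, which favours a lower betaTC3 value in advance. The peak was narrow, at 369 and 616 bp in the empty vector and at most 234 bp in the knockdown. The authors' folds were 6.23 and 6.996 in the empty vector and 4.52 and 5.20 in the knockdown. These peaks ranked above only 8.57% to 16.2% of the peaks of their lists by q-value, so they lay near the weak end. A start site of the RefSeq promoter table, at 103215352, lies inside the window, and the internal sequence printed above ends 1 base before it. The peak of 1 library covered that base.

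At the upstream Cbx5 start the lines did not separate. The window there, assigned to Hnrnpa1 and centred 712 bp upstream of Cbx5 (chr15:103240416-103240816), had 801 and 853 scaled reads in the empty vector, 608 and 693 in the knockdown, and 894 and 765 in betaTC3. The betaTC3 libraries lay on either side of the empty-vector pair, and the log2 change was 0.001 (SE 0.15, limma adjusted p = 0.996). A peak covered that start in 6 of 6 libraries.

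**Figure D4:**
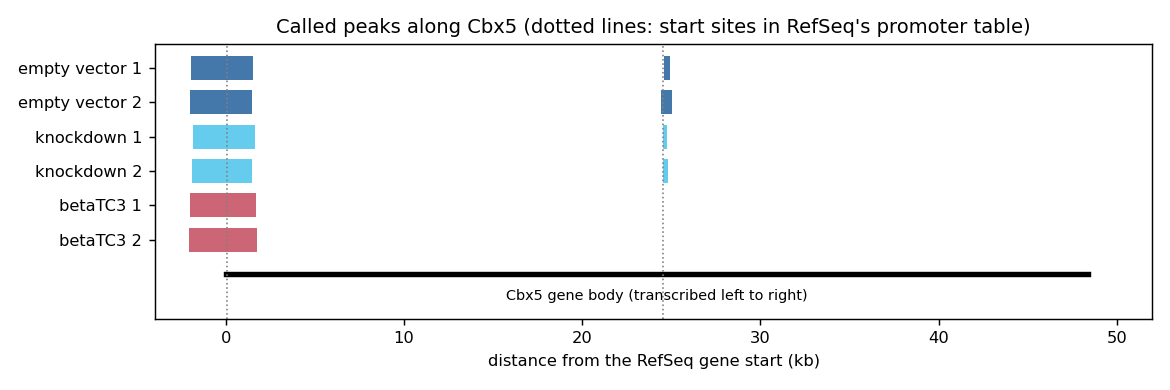
Called peaks (bars) along the Cbx5 gene in each ChIP library, with distance from the RefSeq gene start in kb and dotted lines at the start sites of the RefSeq promoter table. The start peak is present in all 6 libraries, and the narrow internal peak in the 4 alphaTC1 libraries.

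Setdb1 and Cbx3, which had no window of their own, were read from windows at their starts that the table assigns to neighbours. The Gm37500 window at Setdb1 (chr3:95356580-95356980, 422 bp inside Setdb1) had 422 and 423 scaled reads in the empty vector, 289 and 345 in the knockdown, and 456 and 352 in betaTC3. The Hnrnpa2b1 window at Cbx3 (chr6:51469379-51469779, 575 bp upstream of Cbx3) had 1655 and 1839, then 1227 and 1629.5, then 1727 and 1662. In betaTC3 neither separated from the empty vector, with log2 changes of -0.08 and -0.04 (limma adjusted p = 0.729 and 0.871). With chromosome centring the Hnrnpa2b1 window was called higher (0.41, limma adjusted p = 0.00778), since chromosome 6 had a median change of -0.41. Its 20 nearest windows had a median change of 0.40, and relative to them it stood at -0.45, the other direction.

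Smndc1 knockdown was compared with the empty vector within alphaTC1 to ask whether the ChIP signal differed with the shRNA against the splicing factor. All 8 windows had lower values in the knockdown and none was called. Knockdown and empty-vector libraries did not overlap in 8 of 8 windows, with the knockdown lower each time, against 71.5% of all windows without overlap and 64.6% lower without overlap. The median change of the 8 was -0.56 and that of all windows -0.37 on the log2 scale, and 81.2% of all windows were below 0. Limma called 0.0% of all windows, while 35.0% of them, and 4 of the 8, had an unadjusted p under 0.05. Without the second knockdown library, Cbx1 and Ehmt1 were called lower, at -0.70 and -0.75 (limma adjusted p = 0.0333 and 0.0466), as were 6281 windows in all. By edgeR's quasi-likelihood test the counts were 0 of the 8 and 0 windows in all, and by DESeq2 0 of the 8 and 10 windows.

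Suv39h2 had the lowest value of the 8, with 951 ± 7.64 scaled reads in the empty vector and 573 ± 90.8 in the knockdown (SD, n = 2 each), a log2 change of -0.74 (SE 0.22, limma adjusted p = 0.117). None of its 17 nearest windows had a lower value. Ehmt1 and Trim28 stood at -0.60 and -0.60 (limma adjusted p = 0.119 and 0.138), and Cbx1 at -0.52 (0.129). The internal Cbx5 window stood at -0.61 with a wide SE of 0.51 (limma adjusted p = 0.384). Suv39h1, Ehmt2 and Setdb2 stood at -0.44, -0.39 and -0.28 (limma adjusted p = 0.189 to 0.263).

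Chromosome medians in the knockdown comparison were close to each other, at -0.40 to -0.35 for the chromosomes of the 8 windows. Relative to them 7 of the 8 windows were lower, from -0.34 at Suv39h2 to -0.01 at Ehmt2, and Setdb2 was 0.09 higher. With chromosome centring none was called (limma adjusted p = 0.332 to 0.963), against 0.0% of all windows. The knockdown libraries were also the shallowest of the 6. The part of depth and scaling in the shared shift was not tested. The windows at Setdb1, Cbx3 and the upstream Cbx5 start had log2 changes of -0.42, -0.30 and -0.35, none of them called (limma adjusted p = 0.140 to 0.273).

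**Figure D5:**
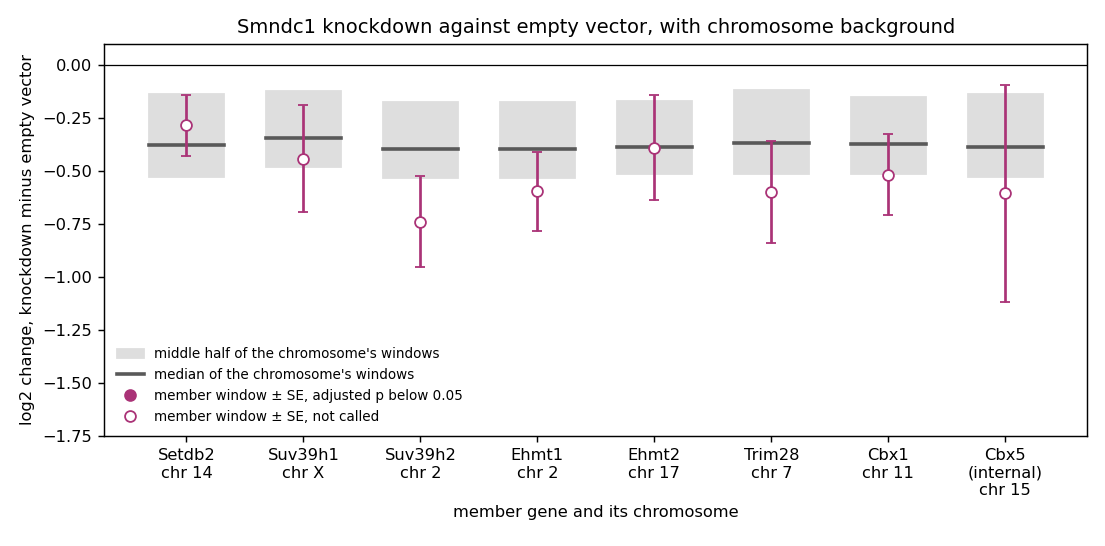
Log2 change of each window, knockdown minus empty vector, with its SE (open points, none called), over the median (line) and the middle 50% (grey box) of all windows of the same chromosome. All 8 windows lie below 0, between -0.74 and -0.28, as do the medians of their chromosomes.

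betaTC3 was also set against the knockdown, with the same betaTC3 and knockdown libraries as above, so these values are not independent of the earlier ones. Suv39h1, Suv39h2 and Setdb2 were higher in betaTC3 and the internal Cbx5 window was lower. Limma called 3 of the 8 windows higher and 1 lower, against 60.6% of all windows called (36.6% higher, 24.0% lower), and groups did not overlap in 6 of the 8, against 81.0% of all windows. Suv39h1 had a mean of 389 ± 74.9 scaled reads in the knockdown and 695 ± 234 in betaTC3 (SD, n = 2 each), a log2 change of 0.81 (SE 0.25, limma adjusted p = 0.0304). Setdb2 differed by 0.72 (limma adjusted p = 0.00541), Suv39h2 by 0.61 (0.0462) and the internal Cbx5 window by -2.69 (0.00452). Peaks at that Cbx5 window were called in alphaTC1 alone, so the limit on its entry given above holds here too. It also holds for its value with chromosome centring below. Without the first betaTC3 library, Suv39h1 stood at 0.46 and Suv39h2 at 0.33, and only Cbx5 was called (limma). By edgeR and by DESeq2, 7 of the 8 were called, all but Trim28, against 12394 and 11389 of the 17641 windows.

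Relative to chromosome 14, whose median change was 1.07, Setdb2 again changed side. Centred on the chromosome medians it was -0.36 and was called lower (limma adjusted p = 0.0207). Suv39h2, Ehmt1, Ehmt2 and Trim28 were then called higher, at 0.50, 0.39, 0.55 and 0.58 (limma adjusted p = 0.0127 to 0.0292), and Cbx5 lower at -2.97 (0.00179). Chromosome centring thus called 4 of the 8 higher and 2 lower, against 64.7% of all windows (34.6% higher, 30.1% lower). Suv39h1 was no longer called (0.49, limma adjusted p = 0.0764), and Cbx1 was not called on either scale.

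Related genes were read from lists chosen by function. Of the genes that work with the methyltransferases and HP1 proteins, 25 had a total of 29 windows, of which 4 were called higher and 9 lower in betaTC3 than in the empty vector, against 55.2% of all windows called (22.1% higher, 33.2% lower). Chromosome centring called 9 higher and 8 lower, against 60.0% of all windows called (31.3% higher, 28.7% lower). Their median change was -0.03, against -0.13 for all windows. Lrif1, which binds HP1, had 319 and 368 scaled reads in the empty vector and 106 and 121 in betaTC3 (-1.59, limma adjusted p = 0.000203). Cdyl2, a chromodomain protein, had 279 and 235 against 69.5 and 55.2 (-2.03, limma adjusted p = 0.000210). A window of Mecom, a PR domain protein, had 79.4 and 78.1 against 1.60 and 0. If the windows were drawn from called peaks, it may have entered through alphaTC1 alone, which would favour a lower betaTC3 value in advance. Groups did not overlap at any of these 3, which were named because they were called, nor at 82.8% of all windows.

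Of the H3K9 demethylase genes, 9 had 9 windows, of which 1 was called higher and 1 lower in betaTC3, against the same 55.2% of all windows. With chromosome centring 3 were called higher and 1 lower, against 60.0% of all windows. The window of Jmjd1c, a member of the demethylase family, was at 0 in all 4 alphaTC1 libraries. It had 344 and 105 scaled reads in betaTC3 (limma adjusted p = 5.24e-05). If the windows were drawn from called peaks, it entered through betaTC3 alone, which favours a higher betaTC3 value in advance. Phf2, a PHD finger demethylase, had 179 and 195 in the empty vector and 86.2 and 82.8 in betaTC3 (-1.14, limma adjusted p = 0.000963), in a window 7424 bp upstream of its start. Both were named because they were called. They separated without overlap, in opposite directions, and 82.8% of all windows had no overlap.

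Cbx2 and Cbx8, Polycomb chromobox relatives of HP1 that read another histone mark, lie on chromosome 11 like Cbx1. Cbx2 had 1553 and 1485 scaled reads in the empty vector and 1005 and 854 in betaTC3 (-0.71, limma adjusted p = 0.0146). A window of Cbx8 had 1151 and 1101 against 653 and 609 (-0.83, limma adjusted p = 0.00231). Named because they were called, both fell without overlap, and 82.8% of all windows had no overlap. Like Cbx1, neither was called with chromosome centring (limma adjusted p = 0.481 and 0.0742). This does not hold for the whole Polycomb chromobox list. Its 4 genes with a window had 8 windows, with 0 called higher and 4 lower, against 55.2% of all windows called. Centring on the chromosome medians called 3 of the 8 higher and 1 lower, against 60.0% of all windows. Of the SET domain genes that write other marks, 18 had 24 windows, with 2 called higher and 7 lower, against 55.2% of all windows called. With chromosome centring 7 were called higher and 5 lower, against 60.0% of all windows. In the knockdown none of the windows of these lists was called by limma.

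The likeness rule took the member window farthest from its chromosome median in betaTC3 minus empty vector, among those within 1 kb of a gene start. This was Ehmt2, at 0.51. The windows on other chromosomes with the closest levels over the 6 libraries were at Lamp1 on chromosome 8, Dnajc11 on chromosome 4 and Nadk2 on chromosome 15, with distances of 0.20, 0.23 and 0.25 in log2 units, out of 11063 candidate windows.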

How the data were processed

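H3K9me3 ChIP and input DNA were sequenced as 50 bp single reads, per the labels' protocols. Bowtie2 2.4.1, Picard 2.19.2, MACS2 2.2.7.1 and the builds mm10 and GRCm38 are named in the submitters' processing notes, without settings. The deposited window table holds a normalised signal: 100.0% of values were whole multiples (within 0.001) of 1 step per library, so whole reads were recovered. The sources used here do not state how the factors were set or whether input entered. Per the file headers or the MACS2 layout, the deposited peak lists hold a score, a fold enrichment and −log10 p and q-values for each peak. They were used to describe and rank within a list.

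The 17641 distinct windows (17655 rows, since 14 windows carry 2 genes) were fitted together with limma 3.58.1 (R 4.3.3) on log2(scaled reads + 1), with a mean for each group over the 6 libraries, an intensity trend and Benjamini-Hochberg adjustment over windows. Fold changes on this scale understate changes of low windows. Changes were also taken relative to chromosome medians and to the 10 nearest windows on each side. edgeR 4.0.16 and DESeq2 1.42.0 were run on the recovered reads. Depth was 4530066 to 9924487 reads in windows, and intervals cover counting error only.

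All windows assigned to the 10 genes were named. From each list of related genes only called windows could be named, at most 4 per list and comparison by smallest p, and the likeness rule named 3 windows. One related gene is not reported here. The members and lists were chosen with earlier results of these data known. Same-numbered libraries did not deviate together (r = -0.01, 0.09 and -0.18), so numbers were not used as pairs. Alternatives covered scaling, filters, pseudocounts, trend, tools, the libraries in the fit and the replicate block. Input samples entered no comparison, and no genome or protein sequence was used here.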

Additional observations from a re-analysis of the deposited data

How the results depend on the processing

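Between betaTC3 and the empty vector, 3 of the 8 windows were called. edgeR, edgeR with its own filter on low counts (17578 windows kept) and DESeq2 each called 5, and leaving out 1 library at a time gave 1 to 3. Between betaTC3 and the knockdown 4 were called. edgeR, filtered edgeR and DESeq2 each called 7, and a fit without the trend and one restricted to the compared groups each called 2. Leaving out 1 library gave 1 to 5 there, and 0 to 2 between knockdown and empty vector, where Cbx1 and Ehmt1 were called lower without the second knockdown library. Setdb2 turned to -0.27 (empty vector) and -0.36 (knockdown) with chromosome centring. The internal Cbx5 window was called lower in betaTC3 under 17 of 17 alternatives against the empty vector (limma, edgeR or DESeq2 adjusted p = 4.43e-05 to 0.0195) and 18 of 18 against the knockdown. Cbx1 was called under 12 of 17 and Setdb2 under 10 of 17 against the empty vector, and each lost its call without any 1 of the 4 libraries compared. All alternatives reuse the same libraries and, at the internal Cbx5 window, a place with peaks called in alphaTC1 alone. The causes were not tested.

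Over all windows, 9744 were called between betaTC3 and empty vector (6983 to 10641 with 1 library left out), 10691 between betaTC3 and knockdown (6523 to 11055) and 0 between knockdown and empty vector (0 to 6281, the highest without the second knockdown library). The last count was 335 with a pseudocount of 0.1, 163 without the trend, 2 with a mean of at least 20 scaled reads, 10 by DESeq2 and 31 when the fit held just the compared groups. On the recovered reads edgeR called 11968, 12394 and 0 windows in the same order.

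With the replicate block, 9152, 0 and 9891 windows and 2, 0 and 2 of the 8 were called, without Setdb2 in the first and Suv39h1 and Suv39h2 in the last, in betaTC3 minus empty vector, knockdown minus empty vector and betaTC3 minus knockdown. A crossed block, chosen after seeing the data, called 11431 windows and 6 of the 8 in the last. Depth limits the internal Cbx5 window, with 2 and 9 reads in betaTC3.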
